A study of Mus musculus with 16 samples.

Results

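The genes described are 9 transcription factors of the core hepatocyte network: Hnf4a, Foxa1, Foxa2, Foxa3, Onecut1, Onecut2, Cebpa, Cebpb and Prox1. They were chosen by name, and every DNase hypersensitive site (DHS) overlapping the body of a gene or the 20 kb on either side of it was taken as belonging to its locus. Peaks of the deposited lists that shared at least 1 bp were joined, which gave 74 DHS at the 9 genes of 51482 DHS in the genome. In mm9 the genes lie at chr2:163332544-163398646 (Hnf4a, plus strand), chr12:58641618-58647108 (Foxa1, minus), chr2:147868613-147872705 (Foxa2, minus), chr7:19598631-19608887 (Foxa3, minus), chr9:74709728-74737591 (Onecut1, plus), chr18:64500002-64560641 (Onecut2, plus), chr7:35904312-35906945 (Cebpa, plus), chr2:167514415-167515918 (Cebpb, plus) and chr1:191945660-191994559 (Prox1, minus). Membership of a window is a matter of position, and no DHS was linked to a gene by a functional assay here.

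DNase-seq measures where the nuclease DNase I cuts chromatin in nuclei, and a DHS is a stretch of accessible DNA, usually a promoter, enhancer or insulator. Liver nuclei came from males and females of C57BL/6J, written B6 below, and of CAST/EiJ, written CAST and derived from wild mice of another subspecies, all 8 weeks old and without any treatment or engineered allele in the labels. Nuclei were digested with 32 U of DNase I, and 16 libraries were kept, 4 for each of the groups male B6, female B6, male CAST and female CAST. The paper excluded a further library per group because sample quality varied. Peaks were called once per group on its 4 libraries merged, so each group is a single list, no spread between replicates can be computed, and no comparison below carries a test.

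Hepatocyte nuclear factor 4α, encoded by Hnf4a, is a nuclear receptor that sits at the centre of the liver's transcription factor network. FOXA proteins are forkhead factors able to bind nucleosomal DNA, ONECUT proteins carry a cut domain beside a homeodomain, C/EBP proteins are basic leucine zipper factors of metabolic and acute phase genes, and PROX1 is a homeodomain protein that acts as a co-repressor of bile acid synthesis genes. In adult liver these factors occupy enhancers together and bind at each other's genes.

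Sequences are given for the DHS on which the comparisons below turn. Each is named by the distance of its strongest summit from the start site of the gene, and the 200 bases around the summit (for Cebpa, the 200 bases just before its start site) are shown on the plus strand of mm9, 5′ to 3′. Capitals mark matches to the short motifs searched, and sequences without capitals held none of them. None is shown for Foxa1, Foxa3, Onecut1 or Onecut2. The first 4 lie at Hnf4a, namely the adult promoter P1 at chr2:163372579-163372778, which also covers part of the exon of a non-coding Hnf4a transcript, an upstream intronic DHS at chr2:163366577-163366776, and the intronic chr2:163381075-163381274 and the downstream chr2:163406271-163406470, which had the highest CAST over B6 ratios.
Hnf4a −0.2 kb (P1): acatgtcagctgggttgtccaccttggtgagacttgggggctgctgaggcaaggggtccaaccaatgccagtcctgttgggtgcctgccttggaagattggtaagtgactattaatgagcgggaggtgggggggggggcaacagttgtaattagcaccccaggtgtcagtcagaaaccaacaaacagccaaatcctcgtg
Hnf4a −6.2 kb: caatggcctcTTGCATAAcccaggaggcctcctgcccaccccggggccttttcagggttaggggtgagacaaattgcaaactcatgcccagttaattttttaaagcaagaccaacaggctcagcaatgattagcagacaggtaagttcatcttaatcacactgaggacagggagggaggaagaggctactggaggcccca
Hnf4a +8.3 kb: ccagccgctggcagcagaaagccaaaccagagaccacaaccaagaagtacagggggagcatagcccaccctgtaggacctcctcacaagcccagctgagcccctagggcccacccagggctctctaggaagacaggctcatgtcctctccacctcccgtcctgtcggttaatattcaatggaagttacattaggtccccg
Hnf4a +33.4 kb: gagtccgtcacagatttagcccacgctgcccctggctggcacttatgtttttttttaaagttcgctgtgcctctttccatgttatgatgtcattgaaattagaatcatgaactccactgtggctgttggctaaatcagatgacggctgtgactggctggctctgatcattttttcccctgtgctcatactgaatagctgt

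The other 5 are the DHS at chr2:147865974-147866173 near Foxa2, which had the highest male over female ratio, the Cebpa promoter at chr7:35904112-35904311, the DHS at chr2:167517588-167517787 near Cebpb, found in both CAST lists alone, the Prox1 intronic DHS at chr1:191971773-191971972, which also had a high male over female ratio, and the DHS beyond the 3′ end of Prox1 at chr1:191930853-191931052, which had the highest fold enrichment of all 74.
Foxa2 +6.6 kb: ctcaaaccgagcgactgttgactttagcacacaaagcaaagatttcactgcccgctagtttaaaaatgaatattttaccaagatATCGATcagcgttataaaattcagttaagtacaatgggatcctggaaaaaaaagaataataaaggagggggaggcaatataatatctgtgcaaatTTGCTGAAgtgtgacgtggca
Cebpa promoter: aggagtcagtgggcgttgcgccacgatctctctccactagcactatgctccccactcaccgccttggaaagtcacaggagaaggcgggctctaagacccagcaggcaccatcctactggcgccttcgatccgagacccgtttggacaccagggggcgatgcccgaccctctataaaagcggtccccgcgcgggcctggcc
Cebpb +3.3 kb: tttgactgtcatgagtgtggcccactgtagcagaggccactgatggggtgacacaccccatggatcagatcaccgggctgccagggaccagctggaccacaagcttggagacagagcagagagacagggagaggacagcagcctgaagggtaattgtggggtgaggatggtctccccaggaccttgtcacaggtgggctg
Prox1 +22.7 kb: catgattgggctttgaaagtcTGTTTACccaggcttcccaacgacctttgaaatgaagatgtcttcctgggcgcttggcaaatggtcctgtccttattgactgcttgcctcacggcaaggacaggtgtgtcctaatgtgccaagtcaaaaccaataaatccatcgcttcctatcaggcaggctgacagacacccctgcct
Prox1 +63.6 kb: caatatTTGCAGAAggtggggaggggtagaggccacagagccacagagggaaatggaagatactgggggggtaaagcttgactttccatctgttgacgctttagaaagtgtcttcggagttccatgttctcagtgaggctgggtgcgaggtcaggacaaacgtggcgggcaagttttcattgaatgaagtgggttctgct

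Peaks are described by their fold enrichment and their summit reads. Fold enrichment is the deposited ratio of the read pileup at the summit to the background there, which the peak caller takes as the larger of a genome-wide and a local estimate. Summit reads are the pileup itself, recovered from the deposited values. The genome-wide background was 15.4 reads in male B6, 13.9 for B6 females, 14.3 for CAST males and 7.94 for CAST females, so a peak needed 30, 28, 28 and 19 reads in that order where no local background was higher. The median over all peaks of a list was 79.0, 61.0, 78.0 and 47.0 summit reads. Intervals of 95% given below are exact and cover counting error of reads or DHS only, not animals or libraries.

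The tissue label was checked against marker genes, by whether a DHS lay within 1 kb of a start site. A promoter DHS was found in all 4 lists for 5 of 6 hepatocyte markers (Alb, Ttr, Apob, Tat and Cps1) and in both male lists alone for Apoa1. None of 4 leukocyte, 3 stellate cell or 3 bile duct markers had one in any list. Of the 4 endothelial markers, Stab2 had one in all 4 lists, with a fold enrichment of 6.39 for B6 males, 4.68 for B6 females, 8.13 for CAST males and 5.45 for CAST females, and the other 3 had one in 1 or 2 lists. In whole liver nuclei, fewer cells with an open site and less accessibility per cell cannot be told apart.

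Chromatin at the 9 loci was dense in DHS beside the median protein-coding gene. A site with more reads passes the threshold of every list more readily, so presence in all 4 lists is not independent of strength. Of the 74 DHS, B6 males had 62, B6 females 42, CAST males 66 and CAST females 43. All 4 lists held 33 of them, or 44.6% (33.0 to 56.6), beside 35.6% of all DHS in the genome. A single list held 17, or 23.0%, beside 35.2%. The 9 windows had a median of 11.8 DHS per 100 kb, beside 3.26 over the windows of 22221 protein-coding genes, and each of the 9 was above that median. Cebpa was densest, with 18.8 DHS per 100 kb, and Onecut2 least dense, with 10.9. As a count per window, not scaled to its length, the median was 8.00 DHS at the 9 genes. It was 9.00 at the other hepatocyte factor genes named below, and 9.50 at the hepatocyte and the endothelial markers. The other gene lists had medians of 0 to 6.50. Many DHS in a window were thus not particular to the 9 genes.

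**Figure D1:**
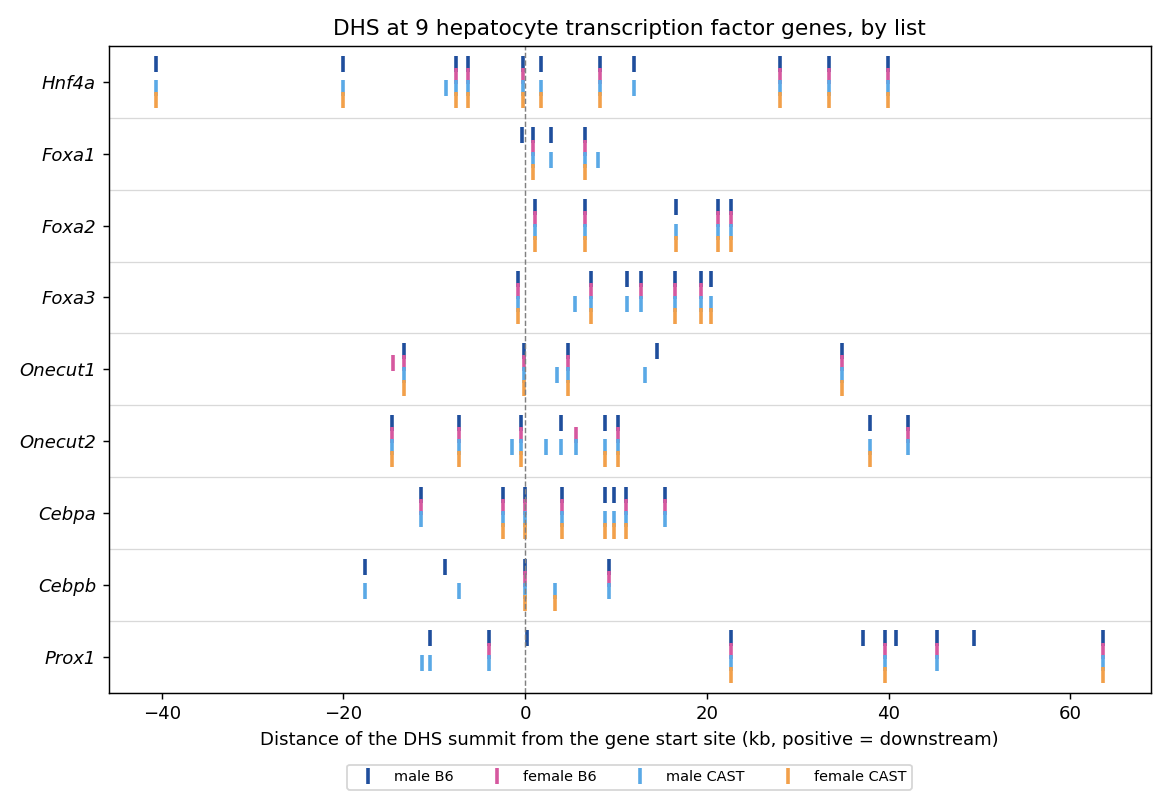
DHS at the 9 genes, one row per gene, by the distance of the summit from the gene start site in kb (for Hnf4a, the start of the P1 promoter). Each tick is a DHS found in the list of that colour. Of 74 DHS, 33 carry all 4 colours (44.6%, beside 35.6% of all DHS), and 6 carry both male colours alone (8.11%, beside 9.38%).

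The interval for the 74 includes the genome's share, and both were closest at promoters. Within 1 kb of any annotated start site lay 20 of the 74, or 27.0%, beside 27.1% of all DHS. All 4 lists held 13 of these 20, or 65.0% (40.8 to 84.6), beside 66.0% of promoter DHS genome-wide. Of the 54 DHS farther from a start site, 20 were in all 4 lists, or 37.0% (24.3 to 51.3), beside 24.2% of such DHS genome-wide, a share just below the lower bound of the interval.

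Promoters of 8 of the 9 genes were DHS in all 4 lists, as were those of 42.8% of protein-coding genes. At P1 of Hnf4a, the promoter used in adult liver, fold enrichment was 5.63 for B6 males, 3.64 for B6 females, 7.21 for CAST males and 5.51 for CAST females, on 183, 80, 225 and 79 summit reads. The male list was above the female list in each strain, as it was for most DHS of the genome. P2, the start site 40.4 kb upstream that is active in pancreas and fetal liver, was a weak DHS with fold enrichment of 2.45 for B6 males, 2.49 for CAST males and 3.13 for CAST females, on 47, 38 and 27 summit reads, and had no peak in female B6. Scaled to female B6 by the genome's median read ratio, the P2 reads of male B6 came to 25.9 over a background of 16.8, under that list's threshold, whereas those of female CAST came to 36.7 over 13.9, above it.

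The forkhead genes differed among themselves. Foxa2 had the widest DHS of the set, 2045 bp covering the promoter and the 5′ part of the gene, with fold enrichment of 5.79 for B6 males, 4.09 for B6 females, 5.30 for CAST males and 4.61 for CAST females. Foxa3 had 4.20, 3.79, 4.46 and 4.13 in the same order at the DHS across its promoter, a narrow range. Foxa1 was weakest, with 2.11, 2.32, 2.74 and 2.89 at +0.9 kb, where the local background was 44.9, 28.8, 46.8 and 19.8 reads. A DHS just upstream of Foxa1, at −0.4 kb, was found in male B6 alone, with a fold enrichment of 1.66.

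Both ONECUT genes were open in all groups. Onecut1 (encoding HNF6) had fold enrichment of 3.85 for B6 males, 2.68 for B6 females, 3.61 for CAST males and 2.63 for CAST females at its 5′ end. A second Onecut1 start site, at +4.7 kb, was the stronger and more even across groups, with 4.77, 4.71, 5.05 and 5.07. The Onecut2 promoter had 3.93, 3.01, 3.38 and 3.19, and was exceeded by an intronic Onecut2 DHS at +10.3 kb with 7.75, 5.79, 7.01 and 7.15.

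Cebpa, whose product maintains glucose and lipid gene expression in hepatocytes, had one of the most read-rich promoters, with 421 summit reads in male B6, 162 for B6 females, 360 for CAST males and 130 for CAST females. Its fold enrichment was moderate, 4.82, 3.68, 4.28 and 4.07, over local backgrounds of 86.6, 43.3, 83.3 and 31.2 reads. Cebpb, the acute phase and regeneration factor, had 4.56, 3.85, 3.79 and 3.61. Prox1 was the exception. Within 1 kb of its start site lay a peak in male B6 alone, which also covered the start site of the divergent lincRNA gene Gm17566, with a fold enrichment of 1.52 on 70 summit reads (q close to the limit of 0.05, at a −log10 q of 1.48). The peak was lost, leaving none in any list, when lists were scaled to a common depth, cut to equal size or held to a −log10 q of at least 15.7. Its reads scaled to 67.8 over a background of 42.4 for CAST males, above that list's threshold, and to 38.6 over 41.5 for B6 females, below it.

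**Figure D2:**
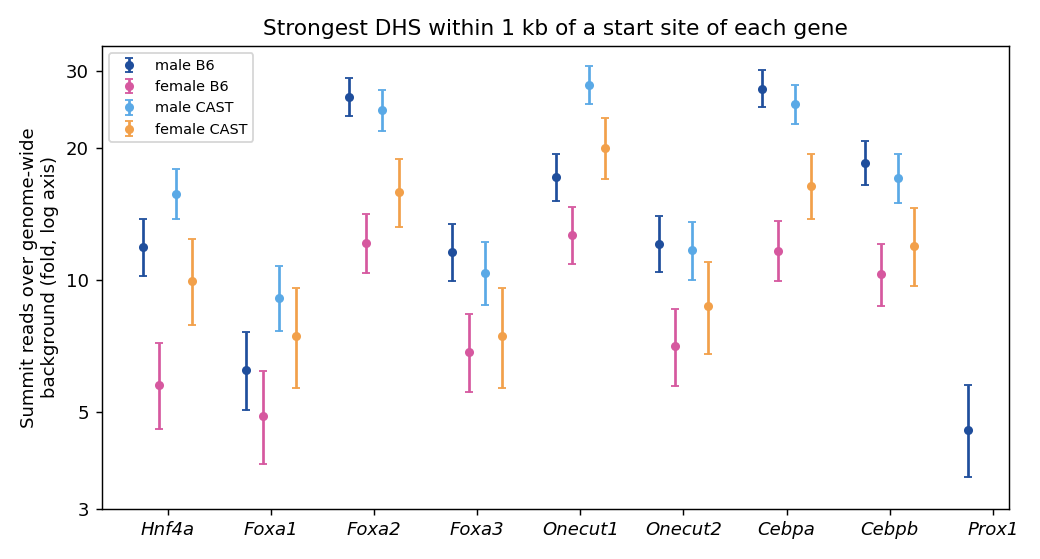
Summit reads divided by the genome-wide background of the list (fold, log axis) at the strongest DHS within 1 kb of a start site of each gene, with exact 95% counting intervals as bars. For Onecut1 this is the start site at +4.7 kb. Cebpa reads 27.4 for B6 males and 11.6 for B6 females, and Prox1 has a single point, 4.56 for B6 males.

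At Hnf4a the highest read pileups lay outside both promoters. In B6 these were 2 DHS of an intron between P2 and P1, and in CAST the DHS at +33.4 kb, with 355 reads in males and 136 in females, stood beside them. The intronic DHS at −7.6 kb had 542 summit reads in male B6, 203 for B6 females, 483 for CAST males and 136 for CAST females, and the DHS at −6.2 kb had 367, 161, 308 and 119. The first of them stood at 35.3, 14.6, 33.9 and 17.1 times the genome-wide background, and the second at 11.6 to 23.9 times. The nearest annotated start site to both is that of 0610008F07Rik, a non-coding gene on the opposite strand, 492 bp from the DHS at −6.2 kb and 1757 bp from the one at −7.6 kb. A further DHS in this cluster, at −8.7 kb, was found in male CAST alone, with 131 reads over a local background of 73.9. Beyond the 3′ end lay 3 DHS in all 4 lists, at +28.1, +33.4 and +39.9 kb.

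**Figure D3:**
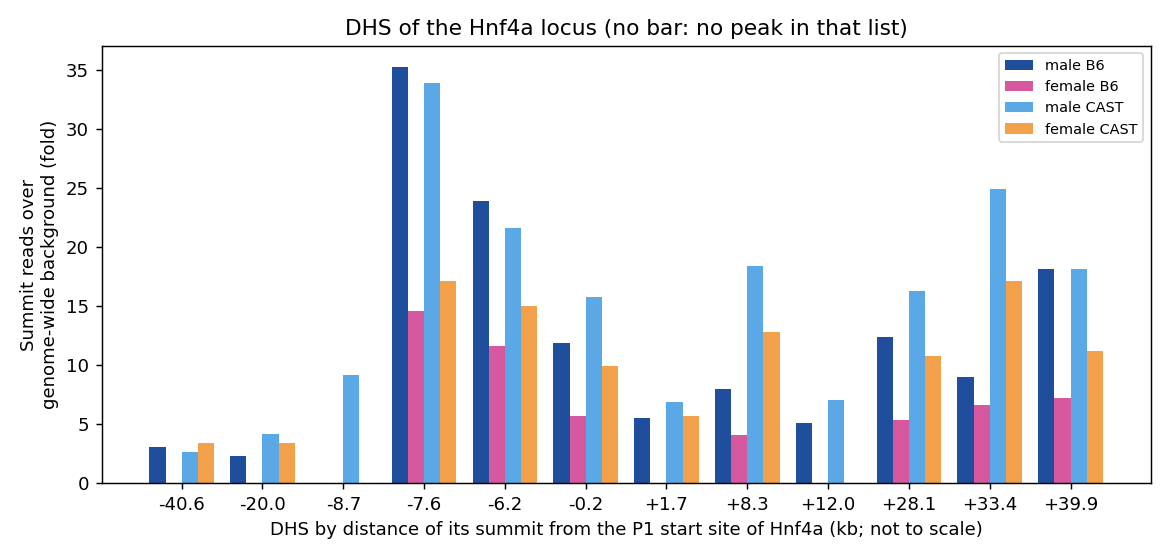
Summit reads over the genome-wide background of the list (fold) at the 12 DHS of the Hnf4a locus, by distance from the P1 start site in kb, spaced evenly. The DHS at −7.6 kb reaches 35.3 for B6 males and 33.9 for CAST males, and at +33.4 kb both CAST bars (24.9 and 17.1) stand above both B6 bars (8.99 and 6.61).

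By fold enrichment, Prox1 combined the weakest promoter with the strongest distal site. The DHS at +63.6 kb, which lies past the 3′ end of the gene, had a fold enrichment of 14.32 for B6 males, 11.56 for B6 females, 15.83 for CAST males and 12.91 for CAST females, a mean percentile of 99.4 among all peaks. Its summit reads were 401, 359, 380 and 238. The 4 lists were close on the scale of fold enrichment. In each other window the DHS of highest mean percentile ranked lower: 86.2 for Onecut2 at +10.3 kb, 81.4 for Hnf4a at +33.4 kb, 70.1 for Onecut1 at +4.7 kb, 69.2 for the wide DHS over the Foxa2 promoter, 59.4 for the Cebpa promoter, 55.0 for the Cebpb promoter and 52.3 for Foxa1 at +6.5 kb. The highest at Foxa3, 63.9 at +19.4 kb, covered the promoter of the neighbouring gene Irf2bp1.

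These loci ranked high by reads and low by fold enrichment. Over the DHS of the 9 genes in each list, the median percentile by summit reads was 65.2 for B6 males, 63.9 for B6 females, 68.4 for CAST males and 63.3 for CAST females. By fold enrichment it was 35.3, 29.2, 41.5 and 28.4. The local background differed in parallel: it was a median of 2.33, 1.71, 2.78 and 2.21 times the genome-wide background at these DHS, beside 1.32, 1.22, 1.29 and 1.28 at all DHS. It was more than 2 times the genome-wide value at 67.7% of the DHS in male B6, 42.9% for B6 females, 71.2% for CAST males and 53.5% for CAST females, beside 20.7, 8.02, 20.2 and 13.8% of all. By its construction, fold enrichment is the summit reads divided by this background.

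**Figure D4:**
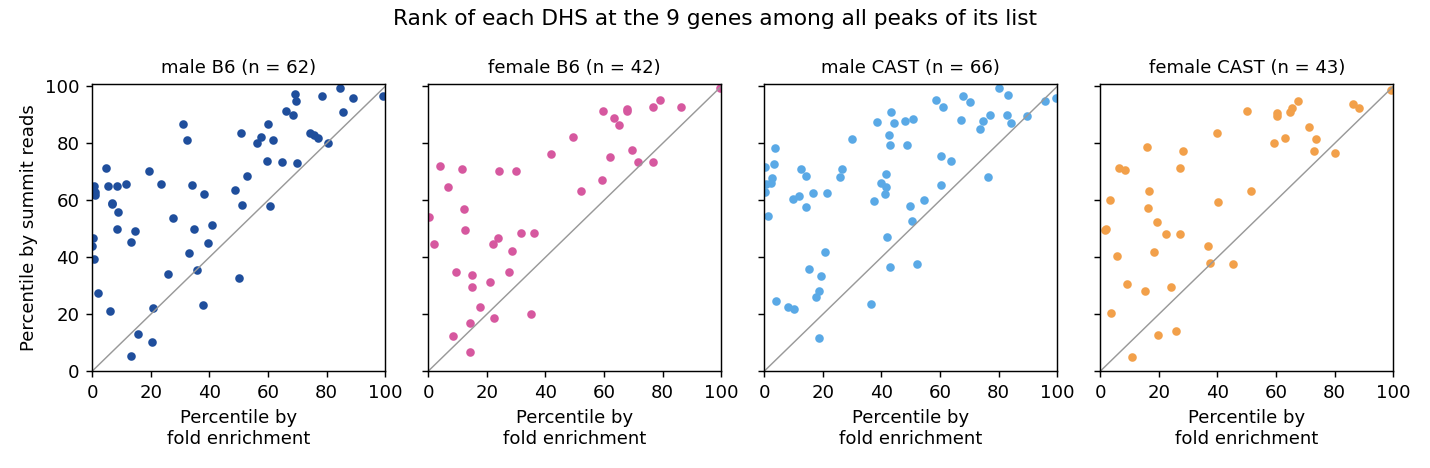
Percentile of each DHS at the 9 genes among all peaks of its list, by fold enrichment (x axis) and by summit reads (y axis), one panel per list, with the line of equal rank. Most points lie above the line, with medians of 35.3 against 65.2 for B6 males and 28.4 against 63.3 for CAST females.

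Between the sexes, the DHS of these genes were shared about as often as others. In B6, 40 of 64 DHS were in both lists, or 62.5% (49.5 to 74.3), beside 58.4% of all. Male B6 alone held 22, or 34.4%, beside 36.4% of all, and female B6 alone held 2, or 3.12%, beside 5.13%. In CAST, 43 of 66 were in both, or 65.2% (52.4 to 76.5), beside 55.8%. Male CAST alone held 23, or 34.8%, beside 40.3%, and female CAST alone held none, which allows up to 5.44%, beside 3.90%.

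Male-only DHS were mostly low by fold enrichment and less so by reads. By fold enrichment 1 of the 22 in B6 (4.55%) and 1 of the 23 in CAST (4.35%) lay above the median of the male list, beside 12.2% and 13.2% of male-only DHS genome-wide. By summit reads 9 (40.9%) and 13 (56.5%) did, beside 11.5% and 11.9%. When male reads were scaled by the genome's median ratio of male to female reads, 20 of the 22 in B6 fell under the female list's own threshold, as did 76.8% of male-only DHS genome-wide. The 2 that did not were Foxa2 at +16.6 kb and Onecut2 at +38.0 kb, both also found in female CAST. In CAST, 17 of 23 fell under the threshold, beside 65.7% genome-wide. The other 6 were Foxa3 at +5.5 and +11.2 kb, Onecut2 at +5.6 kb, Cebpa at −11.4 kb and Prox1 at −3.9 and +45.3 kb.

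Both male lists and neither female list held 6 DHS, at Hnf4a +12.0 kb, Foxa1 +2.9 kb, Foxa3 +11.2 kb, Onecut2 +3.9 kb, Cebpb −17.6 kb and Prox1 −10.4 kb. They were 8.11% of the 74, beside 9.38% of all DHS with this pattern, a share near the background. Their fold enrichment ran from 1.82 at Foxa1 for B6 males to 3.08 at Cebpb in male CAST. No DHS of the 74 was found in both female lists alone, a pattern held by 0.0622% of all DHS. Onecut2 +5.6 kb alone was found in 1 sex in each strain with the sexes opposite (1.35%, beside 0.814% of all DHS). Of the 6, the scaled male reads passed the female threshold only at Foxa3 and only in CAST, with 42.5 reads over 23.6.

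Where both sexes had a peak, fold enrichment was compared as the log2 male over female ratio less the genome's median, 0.40 in B6 and 0.25 in CAST. The median over the 9 genes was −0.08 in B6 (40 DHS) and −0.07 in CAST (43 DHS). In B6, 1 DHS was past 1.5-fold higher and 1 past 1.5-fold lower, beside 2.62% and 2.60% of all DHS. In CAST there were 2 and 2, beside 3.31% and 2.56%. On summit reads 2 were higher and 1 lower in B6, beside 3.75% and 8.22%, and 2 and 2 in CAST, beside 4.56% and 7.32%, but not all were the same DHS. On summit reads over the genome-wide background the same medians were 0.11 and 0.07, of opposite sign, so no direction is given for the 9 genes as a group.

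The DHS at Foxa2 +6.6 kb was past 1.5-fold higher in males in both strains. It covers the start site of 9030622O22Rik, a non-coding RNA neighbour of Foxa2. Fold enrichment was 5.33 for B6 males and 2.55 for B6 females, and 5.66 for CAST males and 3.03 for CAST females, so both male lists were above both female lists. The mean centred log2 ratio was 0.66, the highest among the 33 DHS in all 4 lists. On summit reads, 196 against 58 in B6 and 206 against 45 in CAST, the centred ratio was 1.86 (1.38 to 2.54) in B6 and 1.85 (1.34 to 2.62) in CAST. The wide DHS over the Foxa2 promoter, 403 against 169 reads in B6, had a centred fold enrichment ratio of 1.07 in B6 and 0.967 in CAST. Its centred read ratios were 1.31 (1.09 to 1.58) in B6 and 1.12 (0.913 to 1.39) in CAST. Its strongest summit lay 1.1 kb inside the gene. In CAST the male summit lay 516 bp and the female summit 1607 bp from its lower-coordinate end, so the CAST ratios compare different positions.

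The next highest male over female ratio of fold enrichment, a mean centred log2 of 0.61, was in the Prox1 gene at +22.7 kb. Fold enrichment there was 4.13 for B6 males, 2.54 for B6 females, 6.03 for CAST males and 2.68 for CAST females. The centred read ratio was 2.11 (1.34 to 3.46) in CAST, on 120 and 23 reads, and 1.29 (0.885 to 1.92) in B6, on 94 and 40 reads, an interval that includes 1. On fold enrichment Hnf4a at +28.1 kb came next, with 0.20. On reads it was Hnf4a at −7.6 kb, with centred ratios of 1.47 (1.25 to 1.74) in B6 and 1.44 (1.19 to 1.75) in CAST. Its centred fold enrichment ratios were 1.04 and 1.11. Hnf4a at +39.9 kb was past 1.5-fold on reads in B6, with 1.53 (1.21 to 1.94). In CAST it had 1.18 (0.923 to 1.52), an interval that includes 1, and its centred fold enrichment ratios were 1.25 and 1.05.

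Among the same 33 DHS, the lowest male over female ratios of fold enrichment were at Foxa1, at +6.5 kb (mean −0.52) and +0.9 kb (−0.43), and at Cebpa +11.1 kb (−0.36). At Foxa1 +0.9 kb the centred read ratios were 0.777 (0.564 to 1.08) in B6 and 0.893 (0.651 to 1.24) in CAST. Both intervals include 1. At Cebpa +11.1 kb the direction did not hold on reads in B6, where the centred ratio was 1.05 (0.759 to 1.46), and it was 0.886 (0.624 to 1.27) in CAST. At Foxa1 +6.5 kb fold enrichment was 3.54 for B6 males and 3.25 for B6 females, and 3.44 for CAST males and 4.89 for CAST females. The female list was thus the higher in CAST, with a centred read ratio of 0.724 (0.580 to 0.907), whereas in B6 the centred read ratio was 0.955 (0.754 to 1.22). The other DHS past 1.5-fold lower in males on fold enrichment were Foxa3 +12.8 kb in B6, with 2.07 against 2.56, and Cebpb +3.3 kb in CAST, with 1.79 against 2.56. On reads neither was past 1.5-fold, with centred ratios of 0.726 (0.542 to 0.974) and 0.679 (0.499 to 0.931), and P2 of Hnf4a was in CAST, with 0.570 (0.339 to 0.971).

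The DHS of highest fold enrichment, Prox1 +63.6 kb, differed between the 2 scales. Its centred fold enrichment ratio of male over female was 0.940 in B6 and 1.03 in CAST. Its centred ratio of summit reads was 0.615 (0.532 to 0.711) and 0.647 (0.549 to 0.764), the lowest of the 33 on that scale. The local background there was 27.1 reads in male B6 and 30.2 for B6 females, and 23.1 for CAST males and 17.5 for CAST females.

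Between the strains, sharing in males was higher than genome-wide with peaks joined at 1 bp overlap. Both male lists held 55 of 73 DHS, or 75.3% (63.9 to 84.7), beside 60.0% of all DHS. Other settings gave 66.2 to 78.3% at the 9 genes, with no genome share beside them. Male CAST alone held 11, or 15.1%, beside 20.9%, and male B6 alone held 7, or 9.59%, beside 19.1%. In females, both lists held 33 of 52, or 63.5% (49.0 to 76.4), beside 59.1%. Female CAST alone held 10, or 19.2%, beside 18.3%, and female B6 alone held 9, or 17.3%, beside 22.6%. CAST reads were mapped to a CAST version of the genome, so strain and mapping target cannot be told apart.

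A single DHS of the 74 (1.35%, beside 3.62% of all) was found in both CAST lists and in neither B6 list, Cebpb +3.3 kb, nearest to the start site of A530013C23Rik, with fold enrichment of 1.79 for CAST males and 2.56 for CAST females on 114 and 68 reads. None was found in both B6 lists alone, beside 3.32% of all DHS. By fold enrichment, the highest DHS of a single list was Foxa3 +5.5 kb in male CAST, in an intron of Foxa3, with 3.31 on 110 reads. By summit reads it was Onecut1 +3.5 kb, also in male CAST, with 162 reads and a fold enrichment of 2.07.

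Where both strains had a peak, the median centred log2 CAST over B6 ratio at the 9 genes was 0.05 in males (55 DHS) and 0.06 in females (33 DHS), after removal of genome medians of 0.08 and 0.25. In males 3 DHS were past 1.5-fold higher in CAST and none past 1.5-fold lower, beside 6.68% and 4.49% of all DHS. In females 1 was higher and none lower, beside 4.97% and 3.42%. On summit reads, 8 were higher and 1 lower in males, beside 11.3% and 7.98% of all DHS, and 4 were higher and none lower in females, beside 8.65% and 6.63%.

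The Hnf4a window held the DHS with the largest strain ratios, at +33.4 kb downstream of the gene and at +8.3 kb in an intron. The start site nearest to the first is that of Ttpal, 21380 bp away, against 30103 bp to the nearest of Hnf4a. At +33.4 kb fold enrichment was 4.89 for B6 males, 4.35 for B6 females, 10.72 for CAST males and 7.51 for CAST females, so both CAST lists exceeded both B6 lists. The summit reads were 138, 92, 355 and 136, and the centred read ratio of CAST over B6 was 2.65 (2.17 to 3.25) in males and 2.01 (1.53 to 2.65) in females. At +8.3 kb fold enrichment was 3.63, 2.53, 6.11 and 5.38, with centred read ratios of 2.22 (1.78 to 2.77) in males and 2.43 (1.74 to 3.43) in females. Their mean centred log2 ratios of fold enrichment were 0.80 and 0.76.

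Other DHS of the Hnf4a locus had strain ratios below these on fold enrichment. The intronic DHS at −7.6 kb had a centred fold enrichment ratio of CAST over B6 of 0.919 in males and 0.845 in females, and the one at −6.2 kb had 0.881 and 0.950. P1 had 1.21 and 1.27, and its read ratio of 1.27 (1.04 to 1.55) in males and 1.34 (0.972 to 1.86) in females was below those of +33.4 and +8.3 kb. At −20.0 kb, where female CAST had a peak and female B6 had none, the centred ratio in males was 1.41 on fold enrichment and 1.69 (1.10 to 2.64) on reads. At +28.1 kb the read ratio was 1.26 (1.04 to 1.53) in males and 1.56 (1.13 to 2.16) in females, with fold enrichment ratios of 1.01 and 1.14. The next highest strain ratio of fold enrichment was Onecut1 +34.9 kb (mean 0.35), with fold enrichment of 2.81 for B6 males and 4.46 for CAST males, and 2.42 and 3.11 in the females. Among the 33 DHS in all 4 lists the lowest means on fold enrichment were Foxa2 +22.7 kb (−0.36), the Cebpb promoter (−0.34) and the Onecut2 promoter (−0.23). Their centred read ratios ran from 0.766 to 0.958. The interval left out 1 only for Foxa2 +22.7 kb in males, with 0.766 (0.589 to 0.995). The lowest single ratio was in males at Cebpa +15.4 kb, which had no peak in female CAST, with fold enrichment of 3.42 in B6 and 2.42 in CAST, a centred log2 ratio of −0.58 and a read ratio of 0.559 (0.399 to 0.777).

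**Figure D5:**
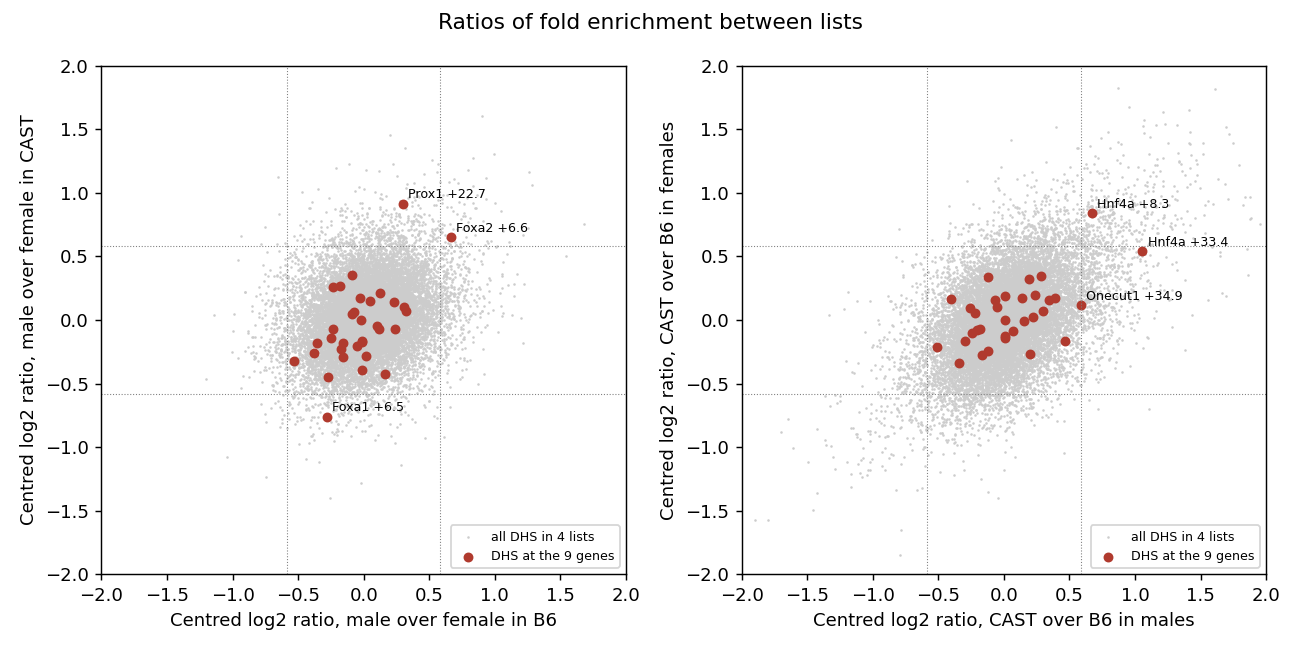
Centred log2 ratios of fold enrichment for the 33 DHS of the 9 genes found in all 4 lists (red) over the 18309 such DHS of the genome (grey, 4 outside the axes), male over female in both strains (left) and CAST over B6 in both sexes (right). Dotted lines mark 1.5-fold. Foxa2 +6.6 kb lies past the line in both strains, and Hnf4a +8.3 kb in both sexes.

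Shape and position of the DHS were like those of the genome. The median width of the 74 was 644 bp, beside 601 bp for all DHS. The summit lay in an intron at 39 (52.7%, beside 44.3%) and between genes at 28 (37.8%, beside 40.8%). Of the 33 DHS in all 4 lists, 17 had their 4 summits within 100 bp (51.5%, beside 54.5%), and the median distance between the outermost summits was 89.0 bp, beside 91.0 bp.

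Motifs were searched on both strands in the 300 bp around each summit, at all DHS alike. The HNF4 letters CAAAGTCCA were found at none of the 74, beside 1.67% of all DHS, and the C/EBP palindrome TTGCGCAA at none, beside 0.223%. The looser C/EBP pattern TTNNGCAA, which contains the palindrome, was at 12 (16.2%, beside 17.2%), and the ONECUT letters ATTGAT or ATCGAT at 12 (16.2%, beside 14.5%). The FOXA letters TGTTTAC were at 9 (12.2%, beside 6.59%), all of them farther than 1 kb from a start site. Of the sequences shown above, Prox1 +22.7 kb held TGTTTAC, Foxa2 +6.6 kb held ATCGAT, and Foxa2 +6.6 kb, Hnf4a −6.2 kb and Prox1 +63.6 kb each held the looser C/EBP pattern on the reverse strand. None of these patterns was at 48 of the 74 (64.9%, beside 66.2%). The median GC content was 51.8%, beside 49.0%.

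Other transcription factor genes set these promoters in context. All of 11 other hepatocyte factor genes (such as Nr5a2, Ppara and Rxra) had a promoter DHS in all 4 lists, and of 122 DHS in their windows 53.3% were in all 4. Of 12 factors of other organs, none had one in all 4 lists and 11 had none in any, Pax6 being found in both male lists. Among 6 paralogs of the 9 genes, Cebpg had one in all 4 lists, Hnf4g had one in 3, and Onecut3, Cebpd, Cebpe and Prox2 had none. Among factors of other liver cells, all 4 lists held the promoters of both bile duct factors (Sox9 and Sox4), 2 of 4 endothelial factors (Erg and Gata4, but not Sox18 or Tal1), 1 of 4 leukocyte factors (Irf8, but not Spi1, Spic or Ikzf1) and neither stellate cell factor (Lhx2 and Tcf21). The part of such cells in the DHS of the 9 genes was not tested.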

How the data were processed

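DNase-seq libraries of mouse liver nuclei (16 libraries, 4 in each of 4 groups, assigned from their titles) were merged by group before peak calling. The authors aligned B6 reads to mm9 and CAST reads to a CAST version of mm9 with Bowtie2, converted CAST coordinates to mm9 and called peaks with MACS2. The deposited lists give, per peak, the fold enrichment (a ratio of summit pileup to background), the −log10 p-value and −log10 q-value, and the summit offset. The other deposited columns were not used.

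Summit reads and background were solved from the fold enrichment, with the MACS2 pseudocount of 1, and the p-value, and at least 99.9% of pileups lay within 0.05 of a whole number. The deposited lists do not state depth, whereas the paper gives an average over all its libraries and tabulates DNase-seq metrics per sample. Peaks overlapping by 1 bp were joined. The annotation was GENCODE M1 and the sequence NCBIM37, the same build as mm9. The 9 genes, gene lists and motifs were chosen with earlier results of these data known. Another 2 genes of the lists were left out of every count and are not reported here. The DHS named were each promoter DHS, the highest mean percentile of fold enrichment per window, DHS of both lists of 1 sex or strain alone, the 3 highest and 3 lowest mean ratios, and the highest of a single list. DHS outside this rule (the Hnf4a cluster and P2, others past 1.5-fold, the Foxa1 −0.4 kb, Onecut1 +3.5 kb and Cebpa +15.4 kb sites, exceptions to scaling) were chosen after their values were seen. Shares carry exact binomial intervals. Ratios of reads carry exact conditional binomial intervals, and both cover counting error only. Read ratios and fold enrichment ratios were centred on the genome's median. For scaling, reads and local background were multiplied by that median and compared with the lowest −log10 p-value of the other list. Joining, recovery and centring were tested on simulated data in python 3.11.15 with numpy 2.4.6 and scipy 1.17.1.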

Additional observations from a re-analysis of the deposited data

Results flagged for a closer look

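The Onecut2 DHS at +5.6 kb, in an intron, was found in a single sex in each strain, and the sex was opposite: it was in female B6, with a fold enrichment of 2.29 on 87 summit reads, and in male CAST, with 3.17 on 230 summit reads, and in neither male B6 nor female CAST. The difference was not tested. Scaled by the genome's median ratios, the reads of female B6 came to 158 over a background of 41.3 in male B6, and those of male CAST to 93.2 over 40.0 in female CAST, both above the threshold of the list without a peak. It was 1 of the 74 DHS (1.35%), and 0.814% of all DHS had such a pattern of opposite sexes, a share near which 1 of 74 lies. Groups of 1 list allowed no search for samples far from their group.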

How the results depend on the processing

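No paired analysis was possible because each group is 1 pooled list, and for the same reason no library could be left out. Of 197 values recomputed, 152 stayed within the limits for an unchanged value, among them all 21 values recomputed with lists scaled to a common depth. Those limits were wide. Counted as unchanged were 62 and 91 DHS in male B6 (20 and 50 kb windows), and 75.3% and 66.2% shared between strains in males (1 bp and 50% overlap). With depth scaled, genes with a promoter DHS in male B6 went from 9 to 8, also counted as unchanged. The counts of DHS at the 9 genes were 30 for B6 males, 17 for B6 females, 40 for CAST males, 18 for CAST females and 16 in all 4 lists with peaks over the median −log10 q of 15.7. They were 40, 26, 43, 27 and 21 with 5 kb windows, 65 (both female lists), 100 (male CAST) and 50 (all 4) with 50 kb windows, and 38, 25, 27 (female CAST) and 20 (all 4) where the nearest start site had to be a member's. With lists of equal size they were 40 for B6 males by q-value, and 31 for B6 males and 38 for CAST males by fold enrichment. The share in both sexes in CAST was 45.0% with the stricter q-value and 78.0% with equal lists by q-value, and the share in both strains in females 84.2% with the stricter q-value. On reads over the genome-wide background, the centred male over female medians were 0.11 in B6 and 0.07 in CAST, and 9 and 4 DHS were past 1.5-fold between strains in males (8 higher in CAST, 1 lower) and females (4 higher). Past 1.5-fold male over female in B6 were 0 DHS with the stricter q-value or the nearest start site, 1 with equal lists, 6 without centring and 0 at 2-fold. In CAST these were 1 with the stricter q-value or the nearest start site and 0 at 2-fold. Between strains in males they were 1 with 5 kb windows, 5 without centring and 1 at 2-fold, and in females 0 with the stricter q-value, 50% overlap or 2-fold, 2 with 50 kb windows and 4 without centring. Fewer peaks, windows or a larger fold give fewer DHS by construction, and the cause of the change in sign was not tested. Leaving the female CAST list out, chosen after seeing the data, gave 40 DHS in the other 3 lists.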
